A study of Mus musculus with 9 samples.

Results

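The 3 histone marks H3K4me3, H3K27ac and H3K27me3 were profiled by chromatin immunoprecipitation and sequencing (ChIP-seq) in the mouse pancreatic cancer cell line labelled male KDM6A-KO. These are 3 of the 9 libraries of the series, 1 for each mark, and every enriched region on chromosomes 1 to 19 was included: 16358 for H3K4me3, 23322 for H3K27ac and 28184 for H3K27me3. Per the labels, the line lacks Kdm6a, comes from the pancreas of mice of a mixed C57BL/6-SV129 strain, and was grown in EGF-supplemented F12/DMEM without treatment. The sources used here do not give how Kdm6a was deleted or whether the line is a single clone. All 3 libraries share the genotype, so the comparisons are between marks of 1 line and say nothing of the deletion. There was no replicate, and no p-value was computed. The deletion and the tissue of origin were not checked, because no gene could be placed on the genome build of the lists.

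H3K4me3, trimethylation of lysine 4 of histone H3, is found at promoters, and broader stretches of it lie at strongly transcribed genes. H3K27ac marks active promoters and enhancers. H3K27me3 is laid down by Polycomb repressive complex 2 over silenced genes, and it cannot sit on the same lysine of the same histone tail as H3K27ac. Promoters with H3K4me3 and H3K27me3 together are called bivalent and are known from developmental genes. Kdm6a (Utx) encodes a demethylase that takes methyl groups off lysine 27.

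The marks differed in width and, more strongly, in read density. H3K4me3 regions had a median width of 4 kb (quartiles 2.4 and 5.4 kb), H3K27ac regions 4.6 kb (3 and 7.2 kb) and H3K27me3 regions 5.2 kb (3.4 and 9.2 kb). The upper tails differed more than the medians. Regions of at least 20 kb numbered 13 for H3K4me3, 728 for H3K27ac and 2068 for H3K27me3, and 64 H3K27me3 regions reached 100 kb. Widths depend on the gap across which enriched stretches are joined, a setting that is not given. The smallest gap left between regions was 400 bp for H3K4me3, 600 bp for H3K27ac and 800 bp for H3K27me3. The covered length was 67.6 Mb for H3K4me3, 145 Mb for H3K27ac and 237 Mb for H3K27me3, which is 2.73, 5.87 and 9.60% of the autosomes. The regions held 7309295, 10900677 and 4804337 reads, a sum that grows with the length called and is not the depth of a library. The median read density was 92.5 reads per kb for H3K4me3, 56.1 for H3K27ac and 16.6 for H3K27me3. The mark that covered the most length was the thinnest in reads, and its middle 50% of regions spanned a narrow band, 14.4 to 19.5 reads per kb. The same band was 46.0 to 128 reads per kb for H3K4me3 and 40.8 to 79.4 for H3K27ac. Densities of different libraries depend on their depths, so they rank regions within a mark and do not compare amounts of the marks.

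**Figure D1:**
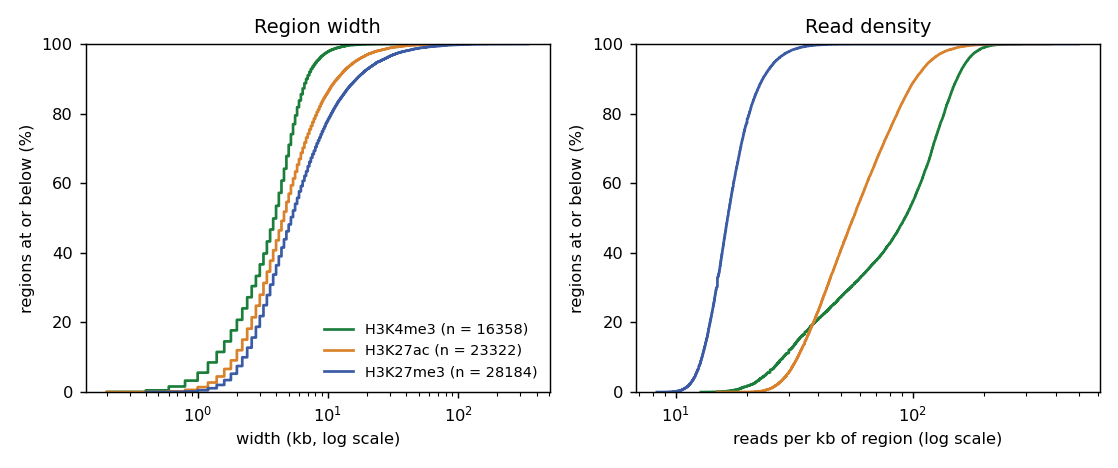
Cumulative share of autosomal regions at or below a width (left, kb, log scale) and at or below a read density (right, reads per kb of region, log scale), 1 line per mark. The widths lie close together around their medians of 4 to 5.2 kb and part in the upper tail, while the H3K27me3 densities lie far to the left of the other marks.

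Overlap was counted wherever regions shared at least 1 bp, with 95% Wilson intervals. These take each region as independent and leave out all but counting error. As a level of placement, 1 list was moved along its chromosome in 20 evenly spaced steps (far displacement), or by 1 to 5 Mb in either direction in 10 steps (near displacement). The near displacement keeps a list within a few megabases of its own place. Both levels are descriptions of these lists and not tests.

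H3K4me3 and H3K27ac lay together. H3K27ac overlapped 77.8% of the H3K4me3 regions (12734 of 16358; 77.2 to 78.5%), against 9.61% after far displacement (range 8.92 to 10.7%) and 11.8% after near displacement. In the other direction H3K4me3 overlapped 51.4% of the H3K27ac regions (11981 of 23322; 50.7 to 52.0%), against 6.57 and 7.94% for the displaced lists. The marks shared 52.1 Mb, 12.4 times the mean of 4.19 Mb after far displacement, with a Jaccard index (length in both lists over length in either) of 0.324. That is 77.0% of the H3K4me3 length and 35.9% of the H3K27ac length. Among regions that overlapped, the match was mostly 1 to 1: of the overlapped H3K4me3 regions, 99.0% met a single H3K27ac region and 44.6% lay wholly inside it. An H3K27ac region with H3K4me3 held a single H3K4me3 region in 93.8% of cases, and 112 held 3 or more.

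H3K27ac and H3K27me3 kept apart. H3K27me3 overlapped 7.66% of the H3K27ac regions (1786 of 23322; 7.32 to 8.01%), below the 14.2% of the far displacement (12.9 to 15.7%) and the 17.9% of the near displacement (16.1 to 20.5%). From the other side, H3K27ac overlapped 6.05% of the H3K27me3 regions (1704 of 28184; 5.77 to 6.33%), against 12.5 and 15.4%. The shared length was 4.39 Mb, which is 0.293 times the far and 0.215 times the near level, and the Jaccard index was 0.0116. The shortfall was thus larger by length than by number of regions. Where an H3K27ac region met H3K27me3, the median overlap was 2 kb, or 58.8% of the region, and 598 of the 1786 lay wholly inside H3K27me3.

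H3K4me3 and H3K27me3 stood between these cases, and their relation to the displaced level depended on how it was taken. H3K27me3 overlapped 19.6% of the H3K4me3 regions (3211 of 16358; 19 to 20.2%), above the far level of 13.5% (11.9 to 15.6%) but inside the range of the near displacement, 15.9 to 20.5% with a mean of 17.9%. H3K4me3 overlapped 10.1% of the H3K27me3 regions (2842 of 28184; 9.74 to 10.4%), against 7.75% far and 9.96% near. The shared 7.38 Mb was 1.05 times the far and 0.754 times the near level. When each list was cut at its median count, the share of H3K4me3 regions was below both levels, 7.42% against 10.9% far and 15.4% near. With lists of the same covered length it was above both, 6.22% against 3.29 and 4.89%. The place of this pair against the displaced lists thus turned with the regions kept.

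**Figure D2:**
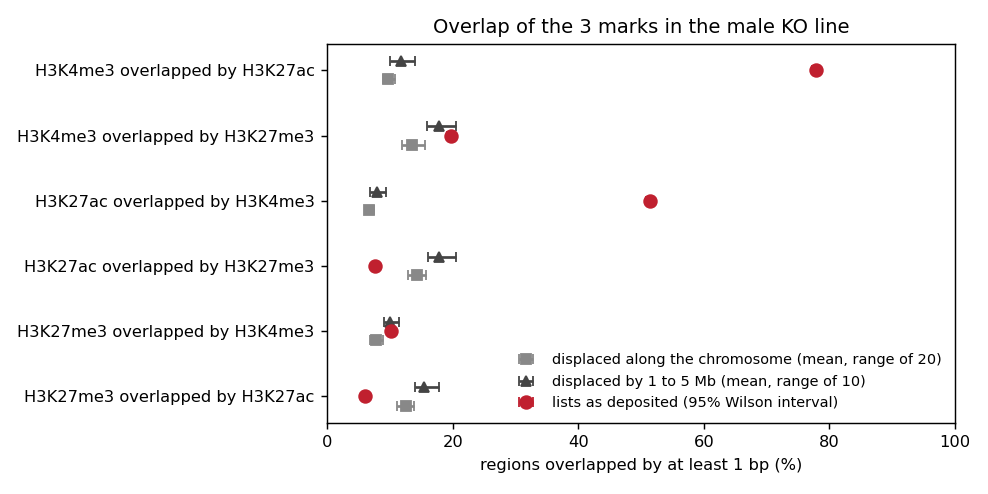
Share of regions of each mark overlapped by another mark (x axis, percent), for the lists as deposited (circles, 95% Wilson interval) and after far (squares, range of 20) and near (triangles, range of 10) displacement. H3K4me3 and H3K27ac lie far above both levels, H3K27ac and H3K27me3 lie below them, and H3K4me3 and H3K27me3 lie above the far level and within the near one.

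The average for H3K4me3 hid opposite patterns at narrow and broad regions. Among the narrowest quartile of H3K4me3 regions (0.2 to 2.4 kb), H3K27me3 overlapped 32.3% (30.9 to 33.7%), which is 2.86 times the far displaced level for regions of that width. Among the broadest quartile (5.4 to 41.4 kb) it overlapped 7.97% (7.18 to 8.84%), 0.510 times that level. H3K27ac went the other way, from 44.4% of the narrowest quartile to 99.1% of the broadest. Read density sorted the regions in the same manner: H3K27me3 fell from 31.9% of the quartile with the fewest H3K4me3 reads per kb to 5.11% of the quartile with the most, while H3K27ac rose from 51.1 to 99.5%. Width and density are related within the H3K4me3 list (Spearman's rho of 0.72 over 16358 regions of 1 library, a description), so they were also separated. At widths of the second quartile (2.4 to 4 kb), regions in the lower part by density carried H3K27me3 in 35.7% of cases (33.7 to 37.8%) and H3K27ac in 60.1%. Regions in the upper part carried H3K27me3 in 16.4% (14.8 to 18.1%) and H3K27ac in 86.2%. In the narrowest quartile the density made little difference to H3K27me3, with 31.2% in the lower and 33.3% in the upper part. H3K27ac there was less frequent in the denser part, 41.1% (39.0 to 43.3%) against 47.8% (45.6 to 49.9%), so its rise with density did not hold among the narrowest regions. Of the 2045 broadest and densest regions, H3K27ac overlapped all (99.8 to 100%) and H3K27me3 4.50%.

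**Figure D3:**
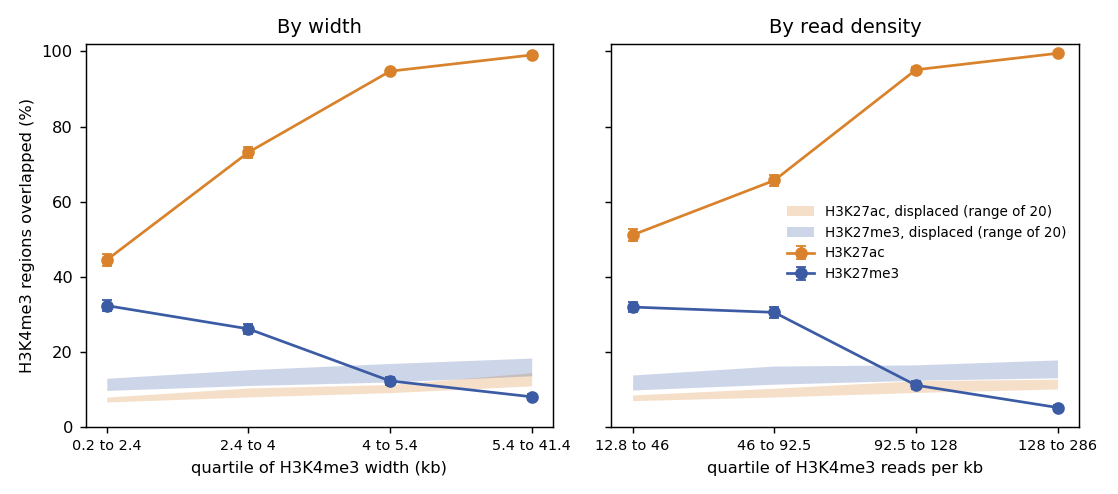
Share of H3K4me3 regions overlapped by H3K27ac (orange) and H3K27me3 (blue) in quartiles of H3K4me3 width (left, kb) and read density (right, reads per kb), with 95% Wilson intervals and bands for the range of 20 far displacements. H3K27ac rises towards wide and dense regions, and H3K27me3 falls from above its displaced band to below it.

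The H3K27 marks split the H3K4me3 regions into 4 classes. H3K27ac alone was at 11528 regions (70.5%, 69.8 to 71.2%), H3K27me3 alone at 2005 (12.3%, 11.8 to 12.8%), both at 1206 (7.37%, 6.98 to 7.78%) and neither at 1619 (9.90%, 9.45 to 10.4%). The H3K27ac class held 86.6% of all H3K4me3 reads, the H3K27me3 class 3.20%. Regions of the H3K27ac class had a median width of 4.6 kb and a median of 110 H3K4me3 reads per kb. Regions with both marks came near them, at 4.2 kb and 90.4 reads per kb. The other classes were narrower and thinner, with 2.2 kb and 41.1 reads per kb for H3K27me3 alone and 1.8 kb and 45.3 reads per kb for neither. By these medians, the regions with both marks lay closer to the acetylated class than to the class with H3K27me3 alone. Both of the former classes require overlap with H3K27ac, which was more frequent at wide and dense H3K4me3 regions. The definition itself thus favours such regions, and the classes were not compared at matched width or density.

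At H3K4me3 regions each H3K27 mark was less frequent where the other was present, but their position against displaced lists depended on which list was moved. H3K27me3 was at 9.47% of the H3K4me3 regions with H3K27ac (1206 of 12734; 8.97 to 9.99%) and at 55.3% of those without it (2005 of 3624; 53.7 to 56.9%). With the H3K27me3 list displaced along the chromosome these shares were 14% (12.2 to 16.3%) and 12% (10.3 to 14.3%), and with near displacement 18.6 and 15.2%. H3K27me3 was thus below both displaced levels at acetylated H3K4me3 regions and far above them at the others. Read from H3K27ac, the shares lay above those of displaced lists both with and without H3K27me3. Displacing the H3K27ac list also parts it from H3K4me3, so this setting cannot show how the H3K27 marks meet. H3K27ac was at 37.6% of the H3K4me3 regions with H3K27me3 (35.9 to 39.2%) and at 87.7% of those without it, against 8.96 and 9.77% when the H3K27ac list was displaced far and 12 and 11.7% when it was displaced near. H3K4me3 regions with both marks, 7.37% as deposited, were 10.9% far and 14.5% near with the H3K27me3 list displaced, but 1.76 and 2.35% with the H3K27ac list displaced. Among the H3K27ac regions, those with H3K4me3 met H3K27me3 more often than those without, 10.4% (9.83 to 10.9%) against 4.80% (4.42 to 5.21%). Regions that were H3K4me3-positive made up 49.7% of the 4.39 Mb where H3K27ac and H3K27me3 ran over the same positions.

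The marks were arranged differently around the classes. A mark that a class lacks is 0 within its regions by definition, so positions away from the centre were compared. The definition still lowers the missing mark and raises the present one nearby. At regions with H3K27me3 alone, H3K27me3 covered 94.5% of the centres, 62.3% of positions 5 kb away on either side and 50.2% at 10 kb. H3K27ac covered 2.34 and 2.64% of positions at 5 kb, against 5.20 and 5.58% in the class with neither mark, which also lacks H3K27ac by definition. At regions of the H3K27ac class, H3K27ac covered 27.3 and 26.5% of positions at 5 kb, against 2.52 and 2.44% for H3K27me3. Averaged over the regions with both marks, H3K27ac was concentrated at the centre and H3K27me3 spread further. H3K27ac covered 96.8% of their centres but 13.0 and 13.2% of positions at 5 kb. H3K27me3 covered 62.3% of the centres and 53.7 and 57.0% at 5 kb. H3K27me3 coverage was slightly higher 2 kb before these centres, at 63.7%, than at the centres. The H3K27 marks shared positions in 1115 of the 1206 regions (92.5%), with a median of 1.8 kb in common, and lay side by side without a shared position in 91. H3K27me3 covered the full width of 465 regions and at most 1 kb of 230, so the averages join different layouts. In 96 regions both marks covered the full width. These are regions of enrichment in a population of cells, and co-occurrence on the same molecules was not measured.

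**Figure D4:**
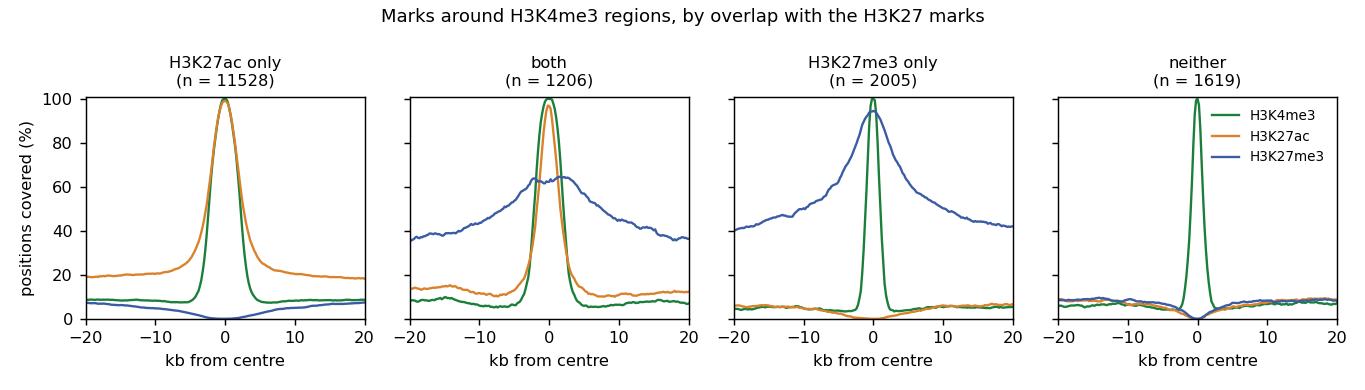
Share of positions covered by each mark (y axis, percent) at distances up to 20 kb from the centre of H3K4me3 regions, in the 4 classes by overlap with the H3K27 marks. In the class with both marks, H3K27ac falls to 13.0 and 13.2% at 5 kb and H3K4me3 to 6.23 and 5.89%. H3K27me3 is still at 35.8 and 36.3% at 20 kb on either side.

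Position inside the H3K27me3 regions also differed between the classes. Taking the centre of an H3K4me3 region on a scale of 0 at the border to 1 at the middle of the H3K27me3 region that held it, the median was 0.608 for regions with H3K27me3 alone (n = 1894; quartiles 0.377 and 0.800) and 0.474 for regions with both marks (n = 751; 0.217 and 0.732). Regions with their centre outside H3K27me3 have no place on this scale, which left 1894 of 2005 and 751 of 1206. The outermost 20% of the scale held 9.66% of the regions with H3K27me3 alone and 23.2% of those with both marks. Centres spread evenly would put 20% there, so the class with both marks was close to even placement. H3K27ac regions without H3K4me3 lay nearest to the borders, with a median of 0.332 (n = 234) and 36.3% in the outermost 20%. In H3K27me3 regions of at least 20 kb the medians were 0.552, 0.468 and 0.398, in the same order.

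Seen from the H3K27me3 list, 24757 regions (87.8%) met neither of the other marks. They had a median width of 5 kb and 16.2 reads per kb. The 1723 regions with H3K4me3 and no H3K27ac were wider and denser, at 10.6 kb and 22.4 reads per kb, close to the 10.8 kb and 21.8 reads per kb of the 1119 regions with both. The 585 with H3K27ac and no H3K4me3 had a median of 8.6 kb and 18.5 reads per kb. Wider regions meet more of anything, so the shares were set against the far displacement for regions of the same widths. Near levels are not given by width or density. Over all H3K27me3 regions the near level for H3K4me3 was 9.96%, close to the 10.1% as deposited. Of the H3K27me3 regions of 2 to 5 kb, H3K4me3 overlapped 4.08% (3.73 to 4.45%), below the displaced 4.98% (4.28 to 5.43%). At 20 to 50 kb it overlapped 31.6% (29.4 to 33.8%) against 18.9% (15.9 to 23.4%), and at 50 to 100 kb 54.7% (48.8 to 60.5%) against 31.6% (25 to 37.0%). Of the 64 regions of at least 100 kb, 44 held H3K4me3 (68.8%, 56.6 to 78.8%, against 46.2% and a displaced range of 29.7 to 57.8%). By length the wide regions showed no such excess: H3K4me3 covered 3.44% of the length at 20 to 50 kb, against 3.06% displaced (2.37 to 3.92%), 3.21% against 3.14% at 50 to 100 kb, and 2.21% against 3.03% (1.65 to 4.04%) from 100 kb. H3K27ac stayed below its displaced level in every width class, for example 17.0% against 25.3% at 20 to 50 kb. The density of H3K27me3 gave a steeper order. In the thinnest quartile H3K4me3 overlapped 1.39% of regions, 0.229 times the displaced level, and in the densest quartile 27.4% (26.4 to 28.5%), 2.54 times that level. For H3K27ac the ratios were 0.143 and 0.894.

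The drop in H3K27ac lay at the borders of H3K27me3. Across the borders of H3K27me3 regions of at least 10 kb, H3K27ac covered 6.28% of positions 2 kb outside and 1.52% of positions 5 kb inside, against 6.36 and 6.26% for lists displaced in 5 steps. Another H3K27me3 region covered 45.7% of the positions 2 kb outside, and 56.5% where the regions were of at least 50 kb. Positions outside a border were thus often not free of H3K27me3. For the 340 H3K27me3 regions of at least 50 kb, H3K27ac was 9.71% at 2 kb outside, against the displaced 6.12%, and 2.79% at 5 kb inside. H3K4me3 was 5.74% at 2 kb outside and 3.24% at 5 kb inside these borders, against 2.74 and 2.68%. These displaced levels are means without a range, and no interval or near level is given for borders. Over all H3K27me3 regions the near level exceeded the far one, 15.4 against 12.5% for H3K27ac and 9.96 against 7.75% for H3K4me3. Whether the values outside the widest regions exceed a near level was not tested. Across the borders of all regions of at least 10 kb H3K4me3 hardly differed, with 3.88% at 2 kb outside and 3.68% at 5 kb inside, against 3.07 and 2.89%. Counted without overlaps, H3K27ac regions lay close to H3K27me3 more often than in the displaced lists, but not with overlaps included. Of all H3K27ac regions, 2.10% had H3K27me3 within 1 kb without overlap, against 1.33% far (1.18 to 1.52%) and 1.50% near displaced (1.32 to 1.87%). A further 5.09% had it at 1 to 5 kb, against 3.22 and 3.73%. More of the displaced regions overlapped H3K27me3, 14.2% far and 17.9% near against 7.66%, and so could not be counted here. With overlaps included, 14.7% of H3K27ac regions had H3K27me3 within 5 kb. That was below the displaced lists, where overlap made up 14.2 and 17.9% before those closer than 5 kb were added. The median distance from an H3K27ac region to H3K27me3, overlaps counted as 0, was 71.1 kb, against 153 kb far (124 to 174 kb) and 93.2 kb near displaced (62.4 to 120 kb), so that it lay inside the near range.

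At the scale of megabases the opposed marks occurred together. In 2395 windows of 1 Mb, the median H3K27me3 coverage rose with H3K27ac coverage: 0% in the quartile of windows with the least H3K27ac, then 0.90, 5.24 and 13.4%. Spearman's rho between the covered shares was 0.56 for H3K27ac and H3K27me3, 0.65 for H3K4me3 and H3K27me3 and 0.89 for H3K4me3 and H3K27ac. These describe windows of 1 genome that share gene density and mappability, and neither of these was measured here. Of the windows, 172 held none of the marks, 570 held H3K27ac and no H3K27me3, and 50 held H3K27me3 and no H3K27ac. H3K27ac covered more than H3K27me3 in 1232 windows and less in 958.

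H3K27ac regions divided almost evenly by H3K4me3, and the parts differed in density more than in width. The 11981 regions with H3K4me3 had a median width of 5 kb and 73.3 H3K27ac reads per kb, and the 11341 without it 4 kb and 42.6 reads per kb. The first group held 70.4% of the H3K27ac reads. H3K4me3 overlapped 13.1% of the quartile with the fewest H3K27ac reads per kb (12.3 to 14%) and 86.1% of the quartile with the most (85.2 to 87.0%), 2.63 and 10.2 times the far displaced level. By width the rise was smaller, from 41.1 to 62.3%. Where the marks overlapped, their densities rose together over 12734 H3K4me3 regions (Spearman's rho 0.43, a description over regions of 2 libraries that share the local DNA amount of the line). The median H3K27ac density was 61.7 reads per kb in the lowest quartile by H3K4me3 density and 95 in the highest. H3K27me3 density showed hardly any such order: it was 23.7 reads per kb in the lowest and 21.5 in the highest quartile of the H3K4me3 regions it overlapped (rho of -0.11, n = 3211). H3K27ac regions without H3K4me3 lay a median of 35.6 kb from the nearest H3K4me3 region (quartiles 13 and 93.8 kb) and 105 kb from H3K27me3. Those with H3K4me3 lay 49.6 kb from H3K27me3.

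H3K4me3 regions with neither mark were mostly not close to one. Their median distance was 25.8 kb to H3K27ac and 67.8 kb to H3K27me3, and 16.4 and 15.3% of them had the mark within 5 kb. Their median of 75 reads compares with 514 in the H3K27ac class and 84 in the class with H3K27me3 alone.

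Chromosomes varied around these shares. H3K27ac overlapped between 69.9% (chromosome 6) and 83.3% (chromosome 15) of the H3K4me3 regions, with a median of 78.3% over the 19 autosomes. H3K27me3 overlapped between 11.5% (chromosome 16) and 28.2% (chromosome 15). The covered length of H3K27me3 was 0.726 times that of H3K27ac on chromosome 3 and 2.36 times on chromosome 6, with a median of 1.64. H3K4me3 regions with both H3K27 marks were 16.1% on chromosome 15, against a median of 6.84% and a lowest value of 3.85% on chromosome 16.

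The positions where H3K27ac and H3K27me3 ran together were concentrated. Chromosome 4 held 19.9% and chromosome 15 held 15% of the 4.39 Mb, with 6.29 and 4.19% of the autosomal length. The 10 windows of 1 Mb with the most shared length, singled out after their values were seen, were all on these chromosomes and held 21.0%. The first was chr4:119158001-120158000, with 236 kb shared, H3K27me3 over 75.2% and H3K27ac over 28.2% of the window. It was followed by chr4:120158001-121158000 with 180 kb and chr4:154158001-155158000 with 112 kb. H3K27me3 density was above the median in all 10, at 24.1 to 45.9 reads per kb against 17.8 over windows with at least 20 kb of the mark. H3K4me3 density in them was 91.4 to 156 reads per kb, with a median of 131 against a median of 108 over such windows. H3K27ac density was 48.4 to 107, with a median of 81.8 against 69.7. For H3K27me3 the median of the 10 was 30.1, so the medians of all 3 marks were higher in these windows. The part of these densities in the overlap was not tested. Without chromosomes 4 and 15, an alternative chosen after seeing the data, H3K27me3 overlapped 6.75% of the H3K27ac regions, and 6.78% of the H3K4me3 regions had both H3K27 marks.

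**Figure D5:**
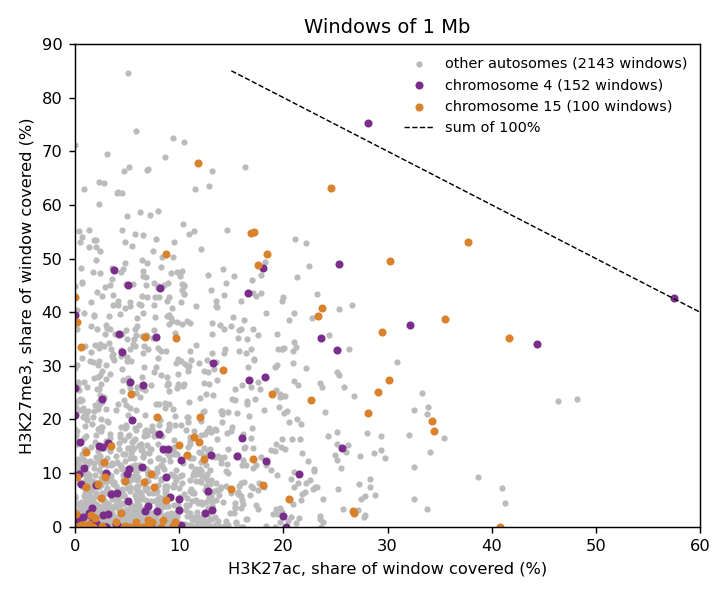
Share of each 1 Mb window covered by H3K27ac (x axis, percent) and by H3K27me3 (y axis, percent), with chromosomes 4 and 15 in colour and a dashed line where the shares add up to 100%. 2 windows of chromosome 4 lie past the line, where the marks must run over the same positions.

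Individual regions show the classes at their extremes. All positions are on mm9. The longest H3K4me3 region, chr10:79596601-79638000, spanned 41.4 kb with 4964 reads (120 per kb) and lay wholly inside 1 H3K27ac region of 180 reads per kb, with H3K27me3 4 kb away. The next in the H3K27ac class, chr12:50477201-50505200 and chr7:148639001-148665000, spanned 28 and 26 kb and were also fully acetylated. The densest of the class was chr4:120237401-120245000, with 286 reads per kb over 7.6 kb.

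The longest regions with both marks were chr15:76537601-76558400, chr17:25955601-25974800 and chr11:69218201-69235400. H3K27ac covered 16.8 of 20.8 kb, 15.6 of 19.2 kb and all of 17.2 kb, and H3K27me3 covered 5.8, 4.6 and 1.4 kb. In these long regions H3K27me3 thus took up a small part. In the class with H3K27me3 alone, the longest region, chr6:88142801-88151200, spanned 8.4 kb with 62.0 H3K4me3 reads per kb, lay fully under H3K27me3 at 40.1 reads per kb, and had H3K27ac 1 kb away. The densest, chr13:20181201-20183800, reached 148 reads per kb over 2.6 kb, with the nearest H3K27ac 233 kb away. The longest regions with neither mark were chr19:4158801-4166600 (7.8 kb), chr1:172961801-172969400 (7.6 kb) and chr13:21349601-21356800 (7.2 kb). H3K27ac lay 1.8, 70.4 and 10 kb from them.

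The longest H3K27ac region, chr9:63486601-63613200, spanned 126.6 kb with 18833 reads (149 per kb) and held 2 H3K4me3 regions over 26.8 kb. chr5:66901401-67014600 and chr7:30202001-30308800 followed with 113.2 and 106.8 kb, and held 4 and 7 H3K4me3 regions. None of the 3 met H3K27me3, which lay 19.2, 38.6 and 2.8 kb away. The longest without H3K4me3, chr9:71491601-71552200, spanned 60.6 kb at 124 reads per kb, 50 kb from the nearest H3K4me3 and 109 kb from the nearest H3K27me3. It was followed by chr16:92604801-92660800 (56 kb) and chr15:66944401-66995800 (51.4 kb).

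The longest H3K27me3 region, chr15:102558201-102908800, spanned 350.6 kb with 13925 reads (39.7 per kb). It held 4 H3K4me3 regions over 10.4 kb and no H3K27ac, which began 3.2 kb from its border. chr4:116962401-117224200 (261.8 kb) held 5 H3K4me3 regions over 13 kb and 3 H3K27ac regions over 8.6 kb. chr15:74198201-74451600 (253.4 kb) held 4 H3K27ac regions over 24.2 kb, 9.55% of its length. chr2:166382001-166584400 (202.4 kb) held 1 H3K4me3 region of 3 kb. chr15:73721201-73910400 (189.2 kb) held neither mark, with H3K27ac 116 kb away. Of these 5 longest regions, 4 thus held H3K4me3 and 2 held H3K27ac, against 10.1 and 6.05% of all H3K27me3 regions, which are far shorter. The third longest with H3K27ac, chr6:52096401-52280000, spanned 183.6 kb and held 1 H3K27ac region of 3.2 kb and 1 H3K4me3 region of 3.6 kb.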

How the data were processed

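The submitters' processing notes name Bowtie 1.1.2, SICER 1 and the build mm9, without further settings. The authors deposited 1 list of enriched regions per library, with chromosome, start, end and a whole number. That deposited number was taken as the read count of the region, made by the authors with no normalization that the values show. The lists carry no header, so this rests on the values and the usual SICER format. Any control library, error threshold or total depth behind the lists is not given in the sources used here.

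Regions on chromosomes 1 to 19 were turned into masks of 200 bp. Displaced lists were rotated within the stretch between the first and last region of any mark on the chromosome. Distances are from border to border. Overlaps and distances were compared with bedtools 2.31.1 for 6 pairs of lists, and 0 differed. The scripts were also tested on simulated data. Chromosome lengths came from GenomeInfoDb 1.38.1. Figures were drawn with matplotlib 3.10.9, and the rest was computed in Python 3.11.15 with pandas 2.3.3, numpy 2.4.6 and scipy 1.17.1.

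Regions named are the 3 longest per class, the 3 densest of at least 1 kb per H3K4me3 class, of which the first is given for some classes, and the 5 longest H3K27me3 regions. The gene tables at hand belong to another build (GRCm38.p6), so no gene was named and no sequence printed. Alternatives were regions at or over the median count, joining of regions less than 1 kb apart, an overlap of 50%, a margin of 5 kb, lists of the same covered length, and near displacement. The members and lists were chosen with earlier results of these data known.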

Additional observations from a re-analysis of the deposited data

Results flagged for a closer look

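The lists also hold regions outside chromosomes 1 to 19, which no comparison used. On chromosome X there were 545 H3K4me3 regions, 633 H3K27ac regions and 74 H3K27me3 regions, covering 1.01, 1.27 and 0.186% of the chromosome. The autosomal shares were 2.73, 5.87 and 9.60%. On chromosome Y there were 5 H3K4me3, 10 H3K27ac and 5 H3K27me3 regions. They were singled out because they lie outside the main measurement. The line is labelled male, no control library was used here, and the copy number of X was not measured. Whether the lower shares on X reflect the marks was thus not tested.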

How the results depend on the processing

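In the order H3K4me3 with H3K27ac, H3K4me3 with H3K27me3, H3K27ac with H3K4me3, H3K27ac with H3K27me3, H3K27me3 with H3K4me3, H3K27me3 with H3K27ac, H3K4me3 with both H3K27 marks and with neither, the shares at or above the median count were 79.1, 7.42, 54.2, 4.97, 4.25, 4.10, 3.72 and 17.2%. With 50% of the region covered they were 74.6, 16.3, 41.1, 4.21, 1.68, 0.944, 3.82 and 12.9%, and with a margin of 5 kb 80.4, 27.1, 56.0, 14.7, 16.0, 12.8, 14.5 and 7.05%. With lists of the same covered length they were 27.1, 6.22, 75.5, 1.3, 43.9, 3.90, 0.232 and 66.9%, where 4856 H3K27ac and 1640 H3K27me3 regions were left beside all H3K4me3 regions. The Jaccard indices (H3K4me3 and H3K27ac, H3K4me3 and H3K27me3, H3K27ac and H3K27me3) were 0.302, 0.00788 and 0.00662 at or above the median count and 0.228, 0.0193 and 0.00262 at the same length. Joining regions left 8 of 11 values within their intervals and gave 52.8% for H3K27ac with H3K4me3, 11.7% for H3K27me3 with H3K4me3 and 6.92% for H3K27me3 with H3K27ac. Without chromosomes 4 and 15 (chosen after seeing the data), 5 of 11 stayed, and the others were 6.75% for H3K27ac with H3K27me3, 5.43% for H3K27me3 with H3K27ac, 6.78% for both H3K27 marks, and Jaccard indices of 0.326, 0.0240 and 0.00853. For the Jaccard indices the interval took every bin of 200 bp as independent. Bins of the same region are not independent, so these intervals are too narrow and small moves count as outside them. Fewer regions, a stricter or a looser overlap move the shares by construction; any further cause was not tested. At or above the median count, after joining and at the same length, H3K4me3 and H3K27ac stayed above, and H3K27ac and H3K27me3 below, their far and near displaced levels. No paired analysis was possible because each mark had 1 library. The depth of the libraries is unknown, so regions missing from a list may be under its limit of detection.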

Other observations

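The 2 densest H3K27me3 regions met no other mark. chr17:39979801-39985800 held 3017 reads over 6 kb (503 per kb) and chr11:3030601-3100000 held 8969 reads over 69.4 kb (129 per kb), against a median of 16.6. The densest H3K27ac region, chr15:101142201-101176400, held 13135 reads over 34.2 kb (384 per kb) and overlapped H3K4me3. These regions were chosen after their values were seen. No control library was used here, so whether such counts reflect the mark was not tested.

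H3K27me3 regions lay in groups. The median distance from an H3K27me3 region to its nearest neighbour on either side in its own list was 1.6 kb. A neighbour lay within 5 kb for 71.7%, against 30.6% for H3K27ac (median 11.8 kb) and 18.6% for H3K4me3 (median 22.4 kb). The smallest gaps in the lists were 800, 600 and 400 bp. Within H3K4me3, regions with H3K27me3 alone had their nearest H3K4me3 neighbour at a median of 32.4 kb, against 20.6 kb in the H3K27ac class.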
